A study of Homo sapiens with 45 samples.

Results

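The genes described here are 10 protein-coding genes of DNA synthesis and of the copying of DNA methylation, out of 60624 genes listed in each of 4 count tables from T47D cells. They are RRM1, RRM2, TYMS, PCNA, GINS2, DTL, UHRF1, DNMT1, FAM111B and E2F1. They were taken as a named group with results of the same libraries already known, and several of them stood among the genes with the lowest values after 1,6-hexanediol. The hexanediol values are therefore given as a description, with no test. The other comparisons were tested across all genes, but the choice of the 10 was not made independently of them.

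T47D is an established human luminal breast cancer line, and the study asked which genes depend on oxygen and on ZHX2, a zinc-finger and homeobox transcription factor. Poly(A) RNA-seq libraries were made in triplicate for each of 15 groups, 45 libraries in all. The first table (shRNA table) compares normoxic and hypoxic cells that carry the control hairpin shCtrl, and adds hypoxic cells that carry shZHX2, a hairpin that targets ZHX2. The second holds hypoxic cells that were untreated (Ctrl) or given 0.5% or 1% 1,6-hexanediol for 24 h. The third (rescue table) holds hypoxic shCtrl cells with an empty vector and hypoxic shZHX2 cells with an empty vector or with a ZHX2 construct labelled WT, PA or SA. The fourth (guide table) holds 4 hypoxic groups, sgCtrl with sgZHX2 and teton_control with teton_sgZHX2. All groups but the first were in hypoxia. Cells infected with lentivirus were selected with hygromycin or puromycin, and the labels do not say what PA, SA or teton stand for, nor whether a group is 1 clone. Nothing says that replicates came from separate cultures, so p-values measure only the spread between these libraries.

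A cell that copies its genome needs deoxynucleotides, a replication fork and a way to write the old DNA methylation pattern onto the new strand. RRM1 and RRM2 are the large and small subunits of ribonucleotide reductase, which makes deoxynucleotides, and TYMS makes thymidylate. PCNA is the sliding clamp of the fork, GINS2 a subunit of the GINS part of the replicative helicase, and DTL the substrate receptor (CDT2) of a CUL4 ubiquitin ligase that acts on proteins bound to PCNA. UHRF1 reads hemimethylated DNA at the fork and brings in DNMT1, the maintenance methyltransferase. E2F1 is a transcription factor that switches on many genes of this kind at the start of S phase. FAM111B is a protease expressed in cycling cells.

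In the GENCODE annotation on GRCh38, RRM1 lies at chr11:4094707-4138876 and FAM111B at chr11:59107185-59127410. RRM2 lies at chr2:10120698-10131419, TYMS at chr18:657604-673578 and DTL at chr1:212035553-212107400. UHRF1 is at chr19:4903080-4962154. These 6 are on the plus strand. On the minus strand are PCNA at chr20:5114953-5126626, E2F1 at chr20:33675683-33686404, GINS2 at chr16:85676198-85690073 and DNMT1 at chr19:10133345-10231286. The strand setting of the counting is not given in the sources used here, so reads of TYMS and of its opposite-strand neighbours ENOSF1 (967 shared exon bases) and TYMSOS (183) cannot be told apart. RRM2 shares 1077 exon bases with AC007240.1 on its own strand, and RRM2, TYMS and PCNA have 3, 2 and 3 annotated pseudogenes. The counts of these 3 genes are uncertain to that extent.

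The promoters are shown because all 10 genes were lower in hypoxia than in normoxia, and because genes of this kind are known as targets of E2F factors. In the guide table, and with shZHX2 in the rescue table, some of the 10 rose while others fell. RefSeq (GRCh38.p14) gave 13 windows of 300 bases, from 250 before to 50 after an annotated start, for 9 of the genes, all but FAM111B. Each was searched on both strands for 4 E2F forms (TTTGGCGC, TTTCGCGC, TTTCCCGC and TTTGCCGC), for CCAAT and for the hypoxia response cores ACGTG and GCGTG, and no match in these windows overlapped another. An E2F form was present in at least 1 window of 7 of the 9 genes, and in 3.315% of all 35116 windows. RRM1 and RRM2 had none. CCAAT was present in 10 of the 13 windows, against 34.61% of all windows, and in 7 of the 9 genes. A hypoxia response core was present in 11 of 13, against 48.45%, and in 8 of the 9 genes. A match is a string of letters in a window and was not tested as a binding site.

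The 5 windows below show the arrangements found, with E2F forms and CCAAT (either strand) in capitals and each sequence written 5′ to 3′ along the gene. DTL (chr1:212035498-212035797, plus strand) has an E2F form ending at the base before the start. E2F1 (chr20:33686336-33686635, minus strand) has 2, at -33 to -26 and -20 to -13. UHRF1 (first start, chr19:4909251-4909550, plus strand) has 1 at -14 to -7. RRM2 (first start, chr2:10122489-10122788, plus strand) has 3 CCAAT boxes and RRM1 (chr11:4094435-4094734, plus strand) has 1.
DTL: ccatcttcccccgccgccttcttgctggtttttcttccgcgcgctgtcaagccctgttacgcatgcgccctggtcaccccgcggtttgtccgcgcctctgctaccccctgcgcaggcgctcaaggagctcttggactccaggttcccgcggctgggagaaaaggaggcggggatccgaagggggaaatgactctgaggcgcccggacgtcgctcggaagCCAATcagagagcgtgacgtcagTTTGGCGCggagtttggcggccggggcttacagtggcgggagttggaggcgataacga
E2F1: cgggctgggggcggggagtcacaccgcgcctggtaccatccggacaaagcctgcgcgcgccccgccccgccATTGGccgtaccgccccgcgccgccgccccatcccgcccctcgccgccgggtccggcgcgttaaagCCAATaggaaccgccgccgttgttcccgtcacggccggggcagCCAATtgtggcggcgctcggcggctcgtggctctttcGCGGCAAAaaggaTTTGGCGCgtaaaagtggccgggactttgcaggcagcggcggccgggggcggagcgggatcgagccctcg
UHRF1: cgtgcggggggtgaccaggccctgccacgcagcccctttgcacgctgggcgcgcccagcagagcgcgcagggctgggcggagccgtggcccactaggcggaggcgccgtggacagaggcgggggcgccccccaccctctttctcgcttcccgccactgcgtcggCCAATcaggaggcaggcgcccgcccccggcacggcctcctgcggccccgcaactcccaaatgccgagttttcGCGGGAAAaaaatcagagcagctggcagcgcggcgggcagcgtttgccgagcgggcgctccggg
RRM2: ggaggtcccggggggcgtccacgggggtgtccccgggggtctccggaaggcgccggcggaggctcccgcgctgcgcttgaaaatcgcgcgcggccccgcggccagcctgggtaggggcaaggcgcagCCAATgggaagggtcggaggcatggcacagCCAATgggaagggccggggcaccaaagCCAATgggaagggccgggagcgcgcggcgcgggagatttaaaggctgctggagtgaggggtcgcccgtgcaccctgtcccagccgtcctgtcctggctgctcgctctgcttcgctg
RRM1: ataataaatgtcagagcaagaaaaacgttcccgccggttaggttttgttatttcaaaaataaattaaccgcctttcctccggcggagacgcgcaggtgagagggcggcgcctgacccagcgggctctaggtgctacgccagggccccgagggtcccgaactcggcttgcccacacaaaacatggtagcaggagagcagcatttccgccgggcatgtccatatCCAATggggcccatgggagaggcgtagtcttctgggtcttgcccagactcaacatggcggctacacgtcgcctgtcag

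**Figure D1:**
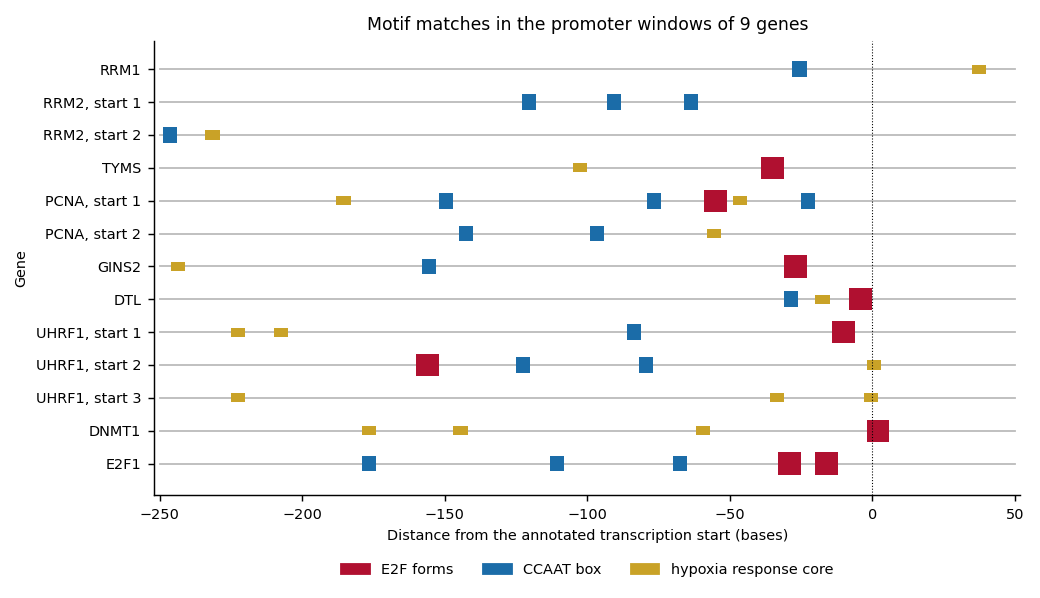
Motif matches in the 13 promoter windows of 9 genes, by distance in bases from the annotated start (dotted line); red boxes are E2F forms, blue boxes CCAAT and yellow boxes hypoxia response cores. E2F forms lie within 60 bases of a start in TYMS, PCNA, GINS2, DTL, UHRF1, DNMT1 and E2F1, and RRM1 and RRM2 show CCAAT without an E2F form.

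The shRNA libraries held 17476890 to 19480495 counts and hexanediol libraries 14111216 to 17713327. Rescue libraries held 18056398 to 24760885 counts and guide libraries 21225854 to 27217814. All 10 genes passed the low-count filter in every table. Levels are given in CPM, counts scaled to library size with TMM factors within a table. Each table was scaled on its own, so levels are compared within a table. ZHX2 stood at 21.6, 18.3 and 16.4 CPM in the 3 hypoxic shCtrl libraries and at 4.91, 3.75 and 6.79 in the shZHX2 libraries. In the rescue table it went from 32.0 ± 1.99 CPM (SD, n = 3) with shCtrl to 6.86 ± 0.545 with shZHX2, and stood at 72.3 ± 1.44 with WT, 54.0 ± 0.436 with PA and 80.5 ± 2.26 with SA. The ZHX2 transcript was not lower with the guides, at 45.1 ± 1.36 CPM in sgCtrl and 49.6 ± 1.69 in sgZHX2, which does not check an edit of the protein. All 9 luminal breast markers (among them ESR1, GATA3 and FOXA1) were detected in every table and leukocyte markers summed to at most 2.92 CPM. Basal markers summed to at most 2.80 CPM in the shRNA and hexanediol tables but to 1180.04 to 2029 CPM in the rescue table and 599 to 1692 CPM in the guide table, nearly all of it KRT17 (1179 to 2029 and 597 to 1688 CPM).

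The 10 genes differed in level among themselves. Per kilobase of exon, PCNA was the highest in normoxia at 92.5 ± 2.53 CPM per kb (SD, n = 3), followed by GINS2 at 32.1 ± 0.627 and E2F1 at 30.3 ± 1.01. The lowest were FAM111B at 8.66 ± 0.524, TYMS at 7.94 ± 0.641 and DTL at 7.64 ± 0.339 CPM per kb, whose ranges lay close together. RRM2 stood at 25.1 ± 0.921, UHRF1 at 23.4 ± 0.198, RRM1 at 14.96 ± 0.397 and DNMT1 at 13.7 ± 0.526.

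**Figure D2:**
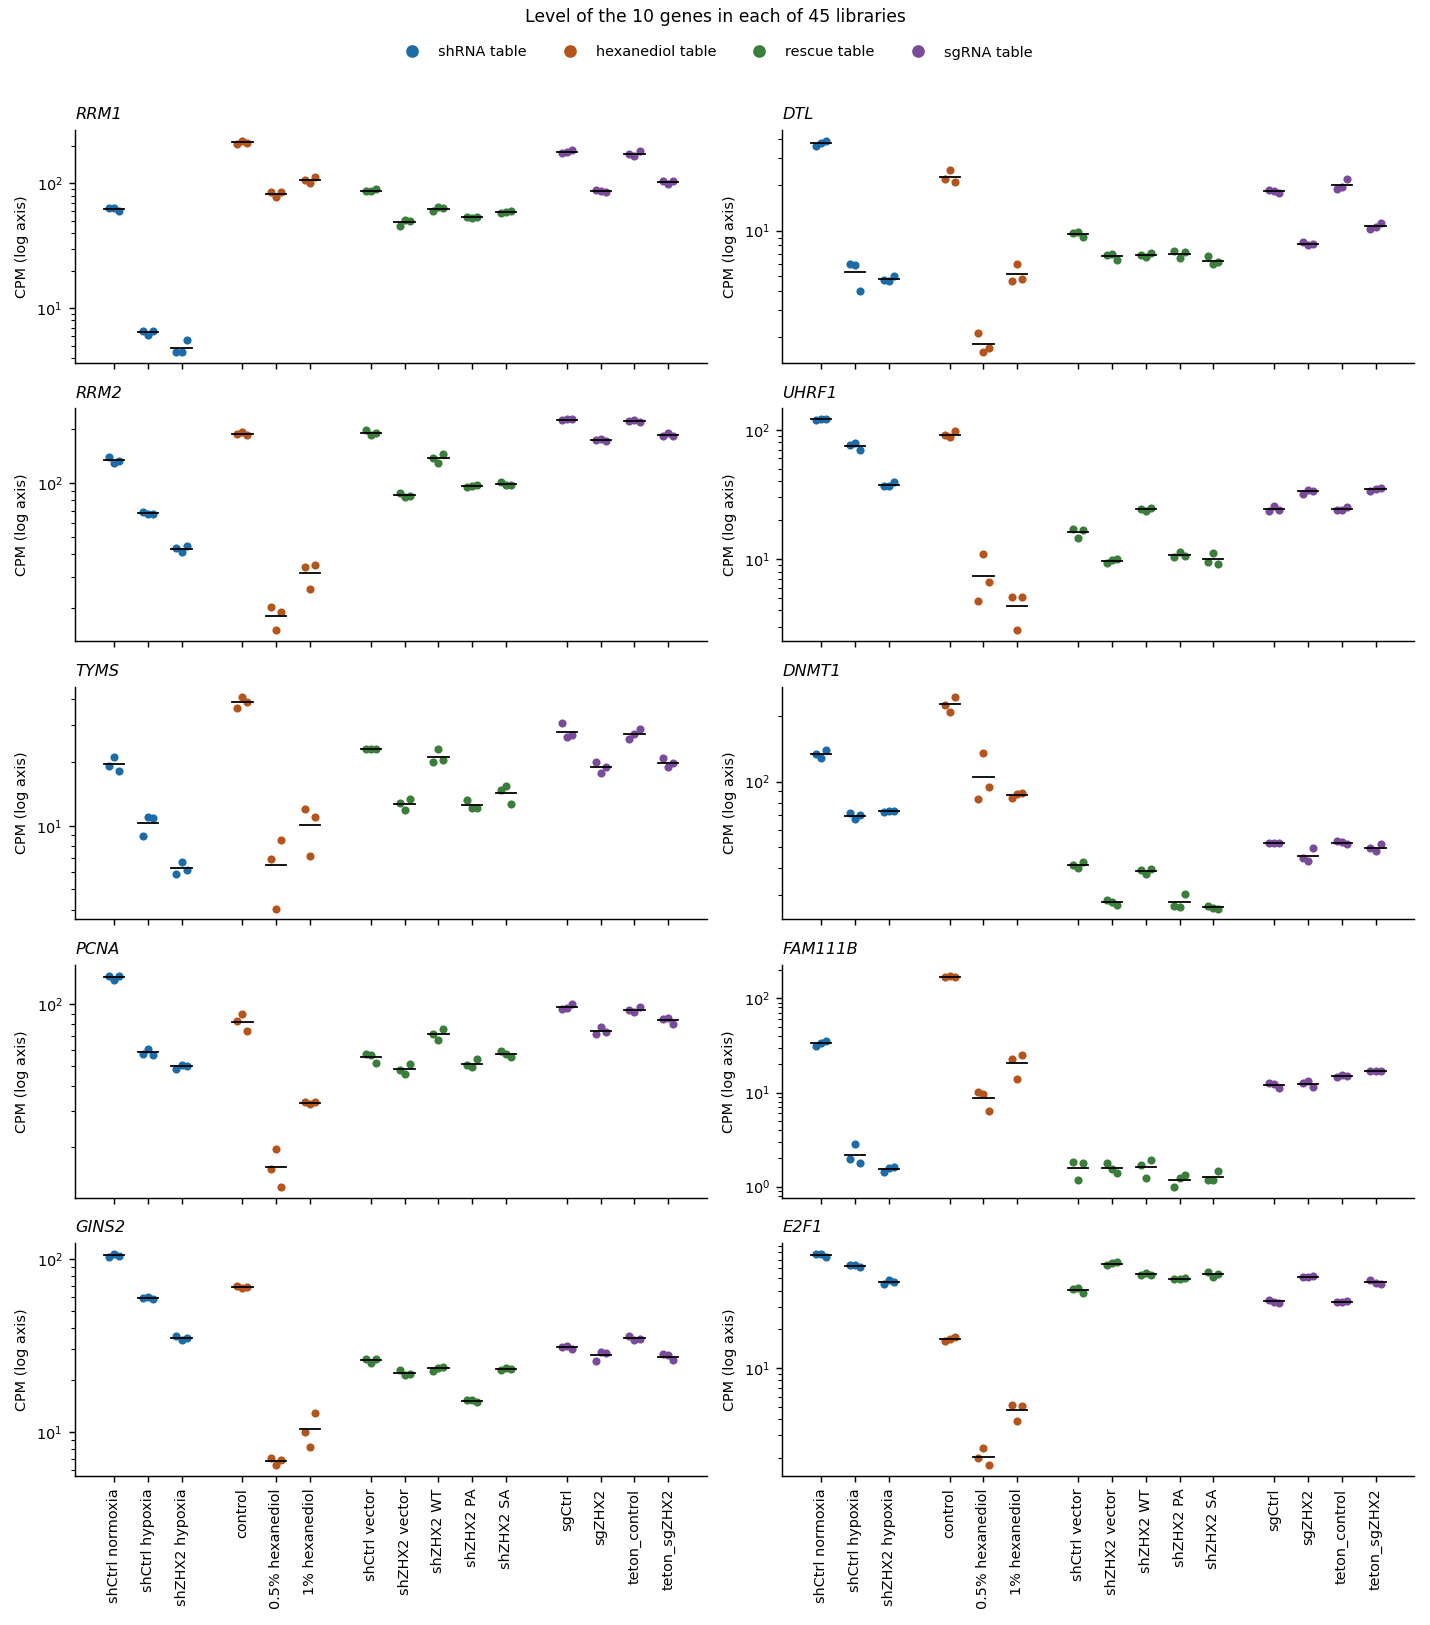
CPM on a log axis for the 10 genes in all 45 libraries; points are libraries, bars are group means and colours mark the 4 tables, each scaled on its own. RRM1, DTL and FAM111B drop furthest from normoxia to hypoxia in the shRNA table, and FAM111B lies between 0.992 and 1.93 CPM in the whole rescue table.

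In hypoxia against normoxia, in shCtrl cells, all 10 genes fell. This was 10 of 10 members called lower by edgeR's quasi-likelihood test at a Benjamini-Hochberg adjusted p under 0.05, where 36.8% of the 14903 genes tested were called lower and 43.1% higher. The members' median log2 fold change was -0.96, against 0.12 over all genes. RRM1, DTL and FAM111B, with PCNA, passed a 2-fold fall (4 members, against 21.8% of all genes).

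The largest falls were in FAM111B, RRM1 and DTL. RRM1 counted 63.4, 63.5 and 60.6 CPM in the normoxic libraries and 6.58, 6.14 and 6.57 in the hypoxic ones. Its groups lay far apart, a 9.71-fold difference with a log2 fold change of -3.28 (SE 0.080, adjusted p = 4.42e-42). FAM111B went from 31.3, 33.7 and 35.3 to 1.95, 2.85 and 1.76 CPM, -3.93 (SE 0.12, adjusted p = 1.68e-36), and no hypoxic library came near a normoxic one. The hypoxic shCtrl values of FAM111B rest on few reads, 30, 45 and 29 counts. DTL went from 35.8, 37.9 and 39.1 to 6.06, 5.95 and 4.01 CPM, -2.82 (SE 0.10, adjusted p = 9.15e-34). The third hypoxic library was the lowest for DTL, and all 3 were below every normoxic library.

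The partner subunit of RRM1 moved much less. RRM2 went from 139, 129.5 and 133 to 68.9, 66.9 and 67.6 CPM, a 1.97-fold fall with a log2 fold change of -0.98 (SE 0.043, adjusted p = 4.45e-29). Per kilobase, the ratio of RRM2 to RRM1 was 1.68 ± 0.0688 in normoxia and 8.28 ± 0.245 in hypoxia (SD, n = 3). The large subunit thus fell further than the small one in this table. In the hypoxic control groups of the other tables the ratio was nearer to or below the normoxic value. It was 1.71 ± 0.0608 in shCtrl with vector and 0.696 ± 0.0120 in the untreated cells of the hexanediol table. In sgCtrl it was 0.989 ± 0.0144 and in teton_control 1.00 ± 0.0575. Those tables hold no normoxic group, so a change with hypoxia cannot be read in them. TYMS fell from 19.6 ± 1.58 to 10.3 ± 1.13 CPM and PCNA from 136 ± 3.72 to 58.2 ± 1.99 CPM, log2 fold changes of -0.93 and -1.23. GINS2 fell from 105 ± 2.05 to 59.5 ± 0.524 CPM, -0.82. In all of these the 3 hypoxic libraries were below the 3 normoxic ones.

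Both genes of methylation maintenance fell, and E2F1 fell least. DNMT1 stood at 134, 129 and 139 CPM in normoxia and 71.8, 67.2 and 69.7 in hypoxia, -0.95 (SE 0.042, adjusted p = 5.49e-29). UHRF1 went from 119, 121 and 121 to 76.1, 79.7 and 70.1 CPM, -0.68 (SE 0.045, adjusted p = 7.44e-21). E2F1 went from 77.7, 77.1 and 73.0 to 63.1, 63.3 and 61.1 CPM, -0.28 (SE 0.048, adjusted p = 4.43e-07). The E2F1 groups did not overlap, but its 1.21-fold fall was the smallest of the 10. Bulk RNA cannot tell fewer cells in S phase from less RNA per cell.

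Related genes, from lists of pathway partners, moved in the same comparison as follows, where 36.8% of all genes fell and 43.1% rose. All 8 GINS partners fell, with CLSPN (a fork and checkpoint mediator) at -3.75 and TIMELESS (of the fork protection complex) at -0.42. Of 19 clamp loading and lagging strand genes, 15 fell and 3 rose; RFC1, the large clamp loader subunit, was at -2.73 and RPA3, of the single-strand binding complex, at 0.62. Of 17 genes of deoxynucleotide supply, 10 fell and 5 rose. The alternative small subunit RRM2B went from 26.0 ± 1.87 to 3.89 ± 0.953 CPM, -2.73, while TK1 (thymidine kinase) rose from 360.1 ± 10.2 to 554 ± 12.4 CPM, 0.62. Of 10 DNA methylation genes tested, 8 fell, with the remodeller HELLS at -3.03, and DNMT3A, a de novo methyltransferase, rose, at 0.39. Of 16 E2F and pocket protein genes, 11 fell and 1 rose.

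The fold changes in hypoxia ran with the base composition of the transcripts. Across 14816 genes with a length, the Spearman correlation of the log2 fold change with GC content was 0.69; genes are not independent replicates. The 3 members with the lowest GC content, FAM111B (37.4%), DTL (42.1%) and RRM1 (43.5%), were those with the largest falls, and E2F1, with the highest (62.5%), had the smallest. Genes within 2 percentage points of a member's GC content had a median log2 fold change of -1.47 for FAM111B, -0.77 for RRM1 and 0.75 for E2F1. Each member lay below the median of its GC neighbours. After a correction of each library for GC content and length, all 10 were still called lower, at -2.62 for FAM111B, -2.53 for RRM1, -1.84 for DTL, -1.21 for UHRF1 and -1.21 for E2F1. Mitochondrial reads made up 4.55 to 4.76% of the normoxic libraries and 9.12 to 9.57% of the hypoxic ones. In the same order the luminal markers summed to 22580.5 to 24329.6 and 58545 to 59226 CPM. The fibroblast markers, with COL1A2 at 0, summed to 33.3 to 36.7 and 46.96 to 51.8 CPM. Only 1 of these 5 reached 1 CPM in this table, so the fibroblast sums are mostly 1 gene. Their part in the result was not tested. With scaling by library size alone, which shifts the median of all genes by -0.48, all 10 were lower as well. The share of calls that were higher went from 53.9% to 29.6% over all genes. Most calls over all genes were therefore lower too under that scaling.

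**Figure D3:**
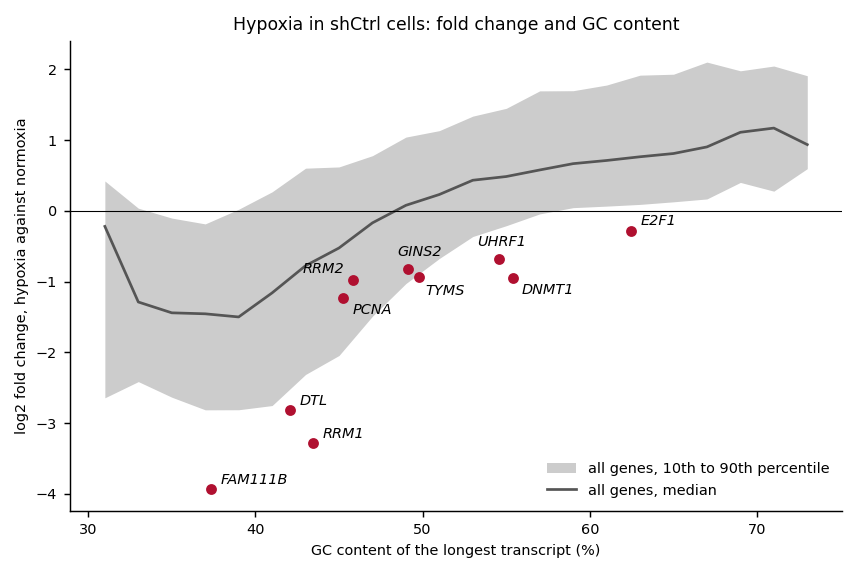
log2 fold change in hypoxia against normoxia (shCtrl cells) by GC content of the longest transcript; red points are the 10 genes, the line is the median of all genes in 2-point bins and the grey band runs from their 10th to 90th percentile. All 10 points lie below the median line, and FAM111B, RRM1 and DTL sit at the low-GC end.

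With ZHX2 knocked down in hypoxia, 8 of the 10 genes fell and none rose, where 33.2% of all genes were called lower and 33.6% higher. The median log2 fold change was -0.46 over the 10 and 0.022 over all genes. This comparison uses the same hypoxic shCtrl libraries as the one with normoxia. UHRF1 fell most, and DTL and DNMT1 were not called. With library size scaling, which shifts the median of all genes by 0.23, 5 were lower and 1 (DNMT1) higher, PCNA turned to 0.0068, and the share of all calls that were higher went from 50.3% to 67.6%.

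UHRF1 stood at 76.1, 79.7 and 70.1 CPM in hypoxic shCtrl and 36.7, 36.6 and 39.3 in shZHX2 cells. Its groups were well apart, at -1.01 (SE 0.050, adjusted p = 3.58e-26), or 2.01-fold. DNMT1, its partner, stood at 71.8, 67.2 and 69.7 and 72.4, 72.8 and 73.1 CPM, 0.064 (SE 0.044, adjusted p = 0.198). The shZHX2 libraries were all slightly above the shCtrl ones, a difference that did not pass the test. DNMT1 was called higher with RLE scaling (0.10), library size scaling (0.30) and the GC and length correction (0.12). The ratio of UHRF1 to DNMT1 per kilobase was 2.06 ± 0.176 with shCtrl and 0.981 ± 0.0364 with shZHX2 (SD, n = 3).

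Among the nucleotide and fork genes, GINS2 went from 59.5, 60.1 and 59.1 to 35.9, 33.9 and 34.9 CPM, -0.77 (SE 0.050, adjusted p = 1.08e-20). TYMS went from 8.99, 11.01 and 10.9 to 5.89, 6.75 and 6.18 CPM, -0.71 (SE 0.12, adjusted p = 4.16e-07). RRM2 went from 68.9, 66.9 and 67.6 to 43.4, 41.3 and 44.4 CPM, -0.65 (SE 0.048, adjusted p = 1.05e-18). None of these pairs of groups overlapped. RRM1 fell further from its low hypoxic level, to 4.85 ± 0.632 CPM (-0.41), a call lost with library size scaling (-0.17). E2F1 fell by a like amount, at -0.42, and PCNA, at -0.23, fell least of the 8. DTL, at -0.14 (SE 0.14, adjusted p = 0.358), overlapped between groups, and was called lower when the third shCtrl library was left out (-0.32). FAM111B was called lower at -0.50 (SE 0.21, adjusted p = 0.0334), a call that was lost without the second shCtrl library (-0.27), without the first (-0.46) or the second (-0.52) shZHX2 library. It was also lost with DESeq2 (-0.47), with RLE scaling (-0.46), with library size scaling (-0.27) and in a fit of the compared groups alone (-0.50).

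RRM2B went the other way from RRM2. It rose from 3.89 ± 0.953 to 11.2 ± 0.385 CPM, 1.51 (SE 0.13, adjusted p = 7.46e-16), and the ratio of RRM2 to RRM2B per kilobase went from 18.8 ± 4.11 to 4.02 ± 0.0698. Of the clamp loading and lagging strand genes, 14 of 19 fell and 3 rose. Of the GINS partners, 4 of 8 fell and none rose, with CDC45, the helicase partner of GINS, at -0.79 and GINS1 at -0.61. Of 10 DNA methylation genes, 1 fell and 4 rose, where 33.2% and 33.6% of all genes did. TET3, which oxidises methylcytosine, was at 1.34. The mitochondrial share was 11.9 to 12.4% with shZHX2 and 9.12 to 9.57% with shCtrl. Luminal markers summed to 27352 to 27626 CPM with shZHX2 against 58545 to 59226 with shCtrl. Fibroblast markers, again mostly 1 gene, summed to 69.5 to 72.4 against 46.96 to 51.8. Their part in the result was not tested.

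In the rescue table, shZHX2 with the empty vector against shCtrl with the empty vector repeats that contrast in other libraries. There 8 of 10 fell (35.3% of 14302 genes) and 1 rose (33.9%), with a median log2 fold change of -0.53 over the 10 and -0.012 over all genes. RRM2 fell from 197, 186 and 189.7 to 87.8, 83.5 and 84.6 CPM, -1.16 (SE 0.033, adjusted p = 1.46e-45). It was the largest change of the 10 in this contrast. TYMS fell from 23.1, 23.2 and 23.2 to 12.8, 11.8 and 13.4 CPM, -0.87 (SE 0.073, adjusted p = 4.29e-18), and RRM1 from 87.0, 86.2 and 89.996 to 45.7, 50.7 and 50.4 CPM, -0.84 (SE 0.040, adjusted p = 2.03e-31). In all 3 genes of deoxynucleotide synthesis every shZHX2 library was below every shCtrl library. UHRF1 fell from 17.0, 14.6 and 16.6 to 9.34, 9.77 and 10.0 CPM, -0.72 (SE 0.080, adjusted p = 6.94e-13), and DNMT1, not called in the shRNA table, from 41.3, 39.996 and 42.7 to 28.3, 27.8 and 27.0 CPM, -0.58 (SE 0.054, adjusted p = 3.69e-16). The smaller changes were DTL at -0.49, GINS2 at -0.25 and PCNA at -0.19.

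E2F1 was the member that rose. It stood at 41.4, 42.4 and 38.2 CPM with shCtrl and 63.1, 65.5 and 67.4 with shZHX2, 0.69 (SE 0.044, adjusted p = 5.50e-24), with no overlap. In the shRNA table the same gene had fallen, at -0.42; the 2 tables were fitted apart and their difference was not tested. FAM111B was not called, at -0.032 (SE 0.22, adjusted p = 0.907), with 21 to 38 counts per library over the whole rescue table. Its SE was the largest of the 10.

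Marker genes differed between these groups as well. KRT17 and the other basal markers summed to 1180.0 to 1196 CPM with shCtrl and vector, 1982 to 2029 with shZHX2 and vector, 1260.2 to 1266 with WT, 1831 to 1911 with PA and 1852 to 1909 with SA. Luminal markers summed to 46387 to 47894, 30978 to 32277, 44221 to 44891, 29220.4 to 29436 and 32478 to 32924 CPM in the same order. Fibroblast markers summed to 17.2 to 21.3, 27.7 to 30.3, 13.0 to 15.5, 18.1 to 20.1 and 14.9 to 17.0 CPM. Only 1 of the 5 fibroblast markers reached 1 CPM in this table, so these sums are mostly 1 gene. The mitochondrial share was 0.749 to 0.778% with shCtrl, 0.785 to 0.807% with shZHX2 and vector, 0.312 to 0.333% with WT, 1.16 to 1.26% with PA and 1.12 to 1.19% with SA. Their part in the members' changes was not tested.

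Expression of WT in shZHX2 cells, against the vector, raised 6 of the 10 genes (35.1% of all genes) and lowered 1, E2F1 (34.6%). The median log2 fold change was 0.42 over the 10 and -0.0016 over all genes. UHRF1 went from 9.34, 9.77 and 10.0 to 24.6, 23.5 and 24.6 CPM, 1.32 (SE 0.077, adjusted p = 1.66e-26), or 2.49-fold. It was the only member past 2-fold (7.12% of all genes), and every WT library was above every vector library and above every shCtrl library (17.0, 14.6 and 16.6 CPM). TYMS rose from 12.8, 11.8 and 13.4 to 20.1, 23.3 and 20.5 CPM, 0.74 (SE 0.074, adjusted p = 1.02e-14), and RRM2 from 87.8, 83.5 and 84.6 to 137, 130.2 and 145 CPM, 0.69 (SE 0.035, adjusted p = 2.47e-30). PCNA rose from 48.2 ± 2.86 to 71.6 ± 4.46 CPM, DNMT1 from 27.7 ± 0.683 to 38.6 ± 0.955 and RRM1 from 49.0 ± 2.80 to 62.6 ± 2.57, log2 fold changes of 0.57, 0.48 and 0.35. DTL and GINS2 were not called, at 0.027 and 0.086, and FAM111B was at 0.067. E2F1 was called lower at -0.28, a call that ended with the GC and length correction (0.029).

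Against shCtrl with vector, the WT cells had 4 members lower (27.1%) and 3 higher (27.1%). RRM1 at -0.49, RRM2 at -0.47 and DTL at -0.46 stayed below the shCtrl level, and GINS2 at -0.16 was lower with adjusted p = 0.0215. That GINS2 call was lost without the first or the third shCtrl library or the first WT library (-0.13 to -0.15), and with DESeq2 (-0.16). UHRF1 at 0.59 (SE 0.072, adjusted p = 3.74e-11), E2F1 at 0.41 and PCNA at 0.38 were above it. TYMS (-0.12) and DNMT1 (-0.10) were not called, though with library size scaling, which moves the median of all genes by -0.11 and the share of calls that were higher from 50.1% to 34.1%, both were called lower (-0.24 and -0.21). TYMS was also called lower without the second WT library (-0.19) and with the GC and length correction (-0.20). With that correction DNMT1 turned to 0.16 and was called higher (adjusted p = 0.00760 by edgeR).

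**Figure D4:**
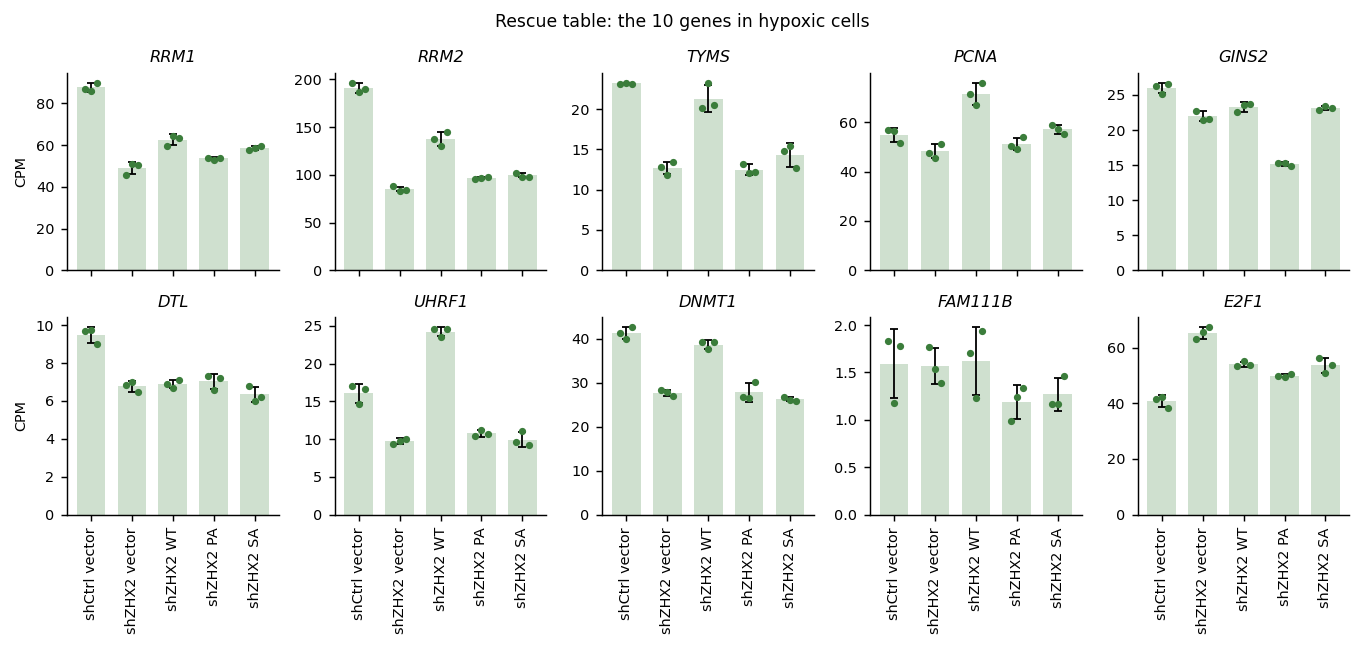
CPM of the 10 genes in the 15 rescue libraries; bars are means, error bars SD (n = 3) and points libraries. UHRF1 with WT is at 23.5 to 24.6 CPM and above all other groups, GINS2 is lowest with PA, and E2F1 is highest in shZHX2 cells with vector.

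For most of the 10 genes the PA and SA forms gave lower values than WT. The ZHX2 transcript was above its shCtrl level with both. Against WT it was lower with PA, at -0.42 (SE 0.042, adjusted p = 9.66e-15 by edgeR), and higher with SA, at 0.15 (SE 0.040, adjusted p = 0.000684). The part of the ZHX2 level in the members' differences was not tested. Against the vector, PA had 2 members higher (24.7%) and 2 lower (22.9%), and SA had 3 higher (20.2%) and 1 lower (21.5%). The members' median log2 fold change was 0.029 with PA and 0.051 with SA. With library size scaling, which moves the median of all genes in PA against vector by 0.15 and the share of calls that were higher from 51.95% to 76.4%, 5 members were higher with PA (RRM1, RRM2, PCNA, UHRF1 and DNMT1). UHRF1 stood at 10.4, 11.3 and 10.6 CPM with PA and 9.56, 11.1 and 9.20 with SA, beside 9.34, 9.77 and 10.0 with vector. Neither passed the test against vector, at 0.15 (SE 0.083, adjusted p = 0.144) and 0.025 (SE 0.084, adjusted p = 0.851). All 3 PA libraries were nonetheless above all vector libraries, and UHRF1 with PA was called higher with library size scaling (0.30, adjusted p = 0.00182 by edgeR) and with the GC and length correction (0.22, adjusted p = 0.0334). RRM2 was called higher with both, at 0.18 and 0.22, and RRM1 too, at 0.13 and 0.26; PCNA was higher with SA (0.24). The RRM1 call with PA was lost without the first vector library (0.086), with DESeq2 (0.12) and without the low-count filter (0.11), and with the GC and length correction its sign turned (-0.0050). PCNA with PA was called higher without the third vector library (0.13), and TYMS with SA without the third vector (0.21) or the third SA library (0.25). With the GC and length correction RRM2 with PA and RRM1, PCNA and E2F1 with SA were no longer called (0.074, 0.10, 0.059 and -0.086). The same correction gained calls with PA for PCNA (0.14) and FAM111B (-0.63).

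In GINS2, every PA library was below every library of the other 4 groups. It counted 15.3, 15.2 and 14.8 CPM with PA, against 22.8, 21.5 and 21.6 with vector, 22.5, 23.6 and 23.8 with WT and 22.9, 23.4 and 23.2 with SA. The shCtrl libraries were at 26.3, 25.1 and 26.5 CPM, and the fall of PA against vector was -0.53 (SE 0.063, adjusted p = 2.14e-11). SA against vector was at 0.078 and not called. E2F1 fell with both forms, at -0.39 with PA and -0.28 with SA.

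Compared with WT directly, PA had 8 members lower (33.7%) and none higher (33.2%), and SA had 6 lower (32%) and none higher (32.1%). The median over the 10 was -0.48 and -0.34. These share the WT libraries with each other. UHRF1 was lowest in both, at -1.17 (SE 0.075, adjusted p = 4.44e-24) with PA and -1.29 (SE 0.076, adjusted p = 5.14e-26) with SA. TYMS was at -0.76 and -0.58, RRM2 at -0.51 and -0.47, DNMT1 at -0.48 and -0.56, and PCNA at -0.48 and -0.32, all called lower with both forms. GINS2 was lower with PA (-0.62) and not called with SA (-0.0074). With library size scaling, which moves the median of all genes in PA against WT by 0.25 and the share of calls that were higher from 49.6% to 70.6%, RRM1 and E2F1 with PA turned to 0.026 and 0.13, and RRM1 with SA to 0.0017. DTL with PA was then called higher (0.27). RRM1 with SA, at -0.093 (SE 0.041, adjusted p = 0.0429), lost its call when the second or the third WT library, or the first or the second SA library, was left out (-0.072 to -0.092), and with DESeq2 (-0.087), RLE scaling (-0.087) and no low-count filter (-0.077). The GC and length correction also ended it (-0.047) and called E2F1 lower with SA (-0.11). The E2F1 call with PA (-0.12) was lost without the second WT library (-0.10) and with DESeq2 (-0.12). FAM111B, at -0.46 with PA, was called lower without the second WT library (-0.61).

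CDCA7 and HELLS, like UHRF1, were lower with PA and SA than with WT. Among the DNA methylation genes, with WT against vector, 7 of 11 rose (35.1% of all genes) and 3 fell (34.6%). CDCA7, which with HELLS forms a nucleosome remodeller, was at 1.77 (SE 0.12, adjusted p = 2.34e-22), and HELLS at 1.35. CDCA7 was at -1.83 in PA against WT and -1.71 in SA against WT, and HELLS at -1.14 and -0.89. Of the 11 DNA methylation genes, 5 fell (33.7% of all genes) and 4 rose (33.2%) in PA against WT. In SA against WT 7 fell (32%) and 2 rose (32.1%). Among the 17 genes of deoxynucleotide supply, 7 rose and 8 fell with WT against vector. DUT, which removes dUTP, was at 1.45 and RRM2B at -0.68. Of the 19 clamp loading and lagging strand genes, 8 rose and 3 fell with WT. In PA against WT 12 of them fell and 1 rose, and in SA against WT 11 fell and 4 rose. PCLAF, a PCNA-binding protein, was at 1.26 with WT against vector, and at -1.32 and -0.93 in PA and SA against WT. Of the 8 GINS partners, 4 rose with WT and none fell.

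In the guide table, 7 members fell in sgZHX2 against sgCtrl (36.1% of 15781 genes) and 2 rose (37%). In teton_sgZHX2 against teton_control, 6 fell (34.7%) and 3 rose (34.4%). The median log2 fold change of the 10 was -0.29 and -0.21, against 0.0085 and -0.0015 over all genes. DTL went from 18.4, 18.2 and 17.6 to 8.38, 8.001 and 8.23 CPM in the sg pair, -1.14 (SE 0.075, adjusted p = 2.04e-18), and from 18.8, 19.3 and 21.7 to 10.3, 10.6 and 11.2 in the teton pair, -0.89 (SE 0.069, adjusted p = 7.34e-16). RRM1 went from 176, 178 and 184 to 88.5, 87.0 and 85.0 CPM, -1.05 (SE 0.032, adjusted p = 1.40e-30), and from 173, 166 and 181 to 104, 99.8 and 105, -0.75 (SE 0.031, adjusted p = 2.79e-25). These were the largest changes in both pairs, and no group overlapped its control. RRM2 fell less, at -0.38 and -0.25, and the ratio of RRM2 to RRM1 per kilobase went from 0.989 ± 0.0144 to 1.57 ± 0.0295 and from 1.00 ± 0.0575 to 1.42 ± 0.0721. TYMS was at -0.56 and -0.44, and PCNA at -0.39 and -0.17. The PCNA call of the teton pair ended with the GC and length correction (-0.069).

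UHRF1 and E2F1 rose with both guide systems. UHRF1 went from 23.7, 25.8 and 24.1 to 31.7, 34.3 and 33.9 CPM, 0.44 (SE 0.051, adjusted p = 1.52e-10), and from 24.0, 24.0 and 25.2 to 33.7, 35.1 and 35.3, 0.51 (SE 0.049, adjusted p = 9.92e-13). Both groups lay wholly above their controls, where the hairpins had gone with lower values. The tables were fitted apart and that difference was not tested. E2F1 went from 34.2, 32.8 and 32.3 to 51.0, 51.2 and 52.3 CPM, 0.64 (SE 0.043, adjusted p = 6.75e-18), and from 32.7, 32.8 and 33.5 to 48.8, 46.3 and 45.4, 0.51 (SE 0.043, adjusted p = 1.63e-14). Fold changes ran with GC content here too (Spearman 0.56 and 0.47 across 15667 genes), and the correction for GC content and length ended both E2F1 calls (0.052 and 0.076) and took UHRF1 to 0.13 and 0.32. DTL and RRM1 remained lower with it, at -0.81 and -0.80 in the sg pair and -0.67 and -0.59 in the teton pair.

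Of the remaining members, GINS2 was at -0.15 in the sg pair, a call lost without the first sgZHX2 library (-0.099), and at -0.35 (SE 0.049, adjusted p = 3.28e-08) in the teton pair. DNMT1 was called lower at -0.19 in the sg pair and was at -0.080, not called, in the teton pair, where the GC and length correction gave -0.21 and a call. FAM111B was at 0.045, not called, and at 0.17 (SE 0.066, adjusted p = 0.0179); the teton call was lost without the first teton_control library (0.16) and with DESeq2 (0.18), and with the GC and length correction the sg value was 0.49 and called. The basal marker sum was 695 to 709 CPM in sgCtrl, 1663 to 1692 in sgZHX2, 599 to 610.2 in teton_control and 1371 to 1385 in teton_sgZHX2, and the mitochondrial share was 2.51 to 2.71%, 1.67 to 1.71%, 2.83 to 2.95% and 1.69 to 1.82% in the same order. Fibroblast markers, of which 1 of 5 reached 1 CPM, summed to 26.5 to 29.5, 53.5 to 55.2, 28.5 to 31.1 and 48.3 to 48.6 CPM. Luminal markers summed to 38374 to 39080.1, 39408 to 40296, 36129 to 36512 and 35859 to 37153 CPM. Their part in these changes was not tested. The change itself differed between the 2 guide systems in 4 of the 10 genes (20.3% of all genes), RRM1, RRM2, PCNA and GINS2. Of the 11 DNA methylation genes, 9 fell in each pair (36.1% and 34.7% of all genes), with UHRF2, the relative of UHRF1, at -1.25 and -1.11. Values corrected for GC content are not given for these genes. Of 7 genes of the ligase that DTL serves and of its substrates, 2 fell (36.1%) and 4 rose (37%) in the sg pair. In the teton pair 2 fell (34.7%) and 3 rose (34.4%). CUL4B, a scaffold of that ligase, was at -1.37 and -1.07. Of the 17 genes of deoxynucleotide supply, 5 fell and 10 rose in the sg pair, and 4 fell and 10 rose in the teton pair. RRM2B was among those that fell, at -0.93 and -0.76, where with the hairpin of the shRNA table it had risen.

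With 1,6-hexanediol, an alcohol that dissolves many protein condensates, all 10 genes were lower than in the untreated hypoxic cells. The members were chosen in part from these values, so they are a description with no test, and nothing is read from the counts. At 0.5%, 10 of 10 were at least 2-fold lower, where 5.01% of 16840 genes were. At 1%, 9 of 10 were, where 13.1% of all genes were. RRM1 lay just outside at -0.998, and the nearest member past 2-fold was PCNA at -1.32.

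FAM111B stood at 167, 175 and 169.9 CPM in the untreated libraries, 10.1, 9.73 and 6.38 at 0.5% and 22.6, 13.95 and 25.0 at 1%. At 0.5% its log2 fold change of -4.28 was the lowest of all genes tested. UHRF1 stood at 90.6, 87.3 and 97.0 CPM untreated, 4.77, 10.9 and 6.65 at 0.5% and 5.06, 2.80 and 5.10 at 1%, log2 fold changes of -3.63 and -4.42. It ranked 5 from the lowest at 0.5%, and DTL (-3.64) ranked 4. DTL stood at 21.9, 24.9 and 21.0 CPM untreated, 2.13, 1.59 and 1.68 at 0.5% and 4.67, 5.99 and 4.79 at 1%. All 3 libraries at 1% were above those at 0.5%. RRM2 stood at 188, 193 and 186 CPM untreated, 20.3, 15.1 and 19.1 at 0.5% and 34.1, 25.7 and 34.8 at 1%. GINS2 stood at 70.0, 67.6 and 68.7 CPM untreated, 7.09, 6.42 and 6.85 at 0.5% and 10.1, 8.24 and 12.9 at 1%. Treated and untreated libraries did not overlap for any of the 10, which were chosen in part from these values. The share of all genes with such groups was not computed, so nothing is read from this.

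RRM1 and DNMT1, the partners of RRM2 and UHRF1, had the smallest differences at 0.5%. RRM1, at 207, 219.8 and 212 CPM untreated and 86.1, 77.6 and 84.8 at 0.5%, was at -1.36 where RRM2 was at -3.38, and the ratio of RRM2 to RRM1 per kilobase went from 0.696 ± 0.0120 to 0.172 ± 0.0169 at 0.5% and 0.231 ± 0.0276 at 1%. In the shRNA table the ratio had been higher in hypoxia than in normoxia. DNMT1, at 226, 211 and 245 CPM untreated and 83.1, 136 and 94.6 at 0.5%, was at -1.12 where UHRF1 was at -3.63. TYMS was at -2.56 and -1.95 at the 2 doses, PCNA at -2.36 and -1.32, and E2F1 at -3.05 and -1.86.

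The higher dose did not give lower values for most of the genes. From 0.5% to 1%, 4 members were at least 2-fold higher (9.09% of all genes) and none at least 2-fold lower (9.85%). DTL was at 1.52, FAM111B at 1.22, E2F1 at 1.18 and PCNA at 1.04. UHRF1 was at -0.79 and DNMT1 at -0.27, the only members with lower means at 1%, and the groups of both overlapped. Without the second library of each dose UHRF1 was at -0.16 and DNMT1 at -0.045. The groups of TYMS overlapped too, at 6.96, 4.04 and 8.595 CPM at 0.5% and 11.96, 7.20 and 10.999 at 1%. The 1% library was the higher of each same-numbered 2, but the values do not show that same-numbered libraries are pairs. The second libraries of both doses stood apart in several genes, with UHRF1 at 10.9 CPM in the second library at 0.5% and 2.80 in the second at 1%. Without these 2 libraries the counts of members at least 2-fold lower stayed at 10 and 9 against untreated cells and 0 between doses. Library size scaling shifts the median of all genes by 0.12 at 0.5% and 0.18 at 1%. The luminal markers summed to 25084 to 27903 CPM untreated, 10854 to 15452 at 0.5% and 3605 to 3850.0 at 1%. Their part in these values was not tested.

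Of the related lists at 0.5%, 16 of 19 clamp loading and lagging strand genes and 7 of 8 GINS partners were at least 2-fold lower (5.01% of all genes). CLSPN was at -4.12, CDC45 at -3.39 and FEN1, the flap nuclease, at -2.80. Of the 17 deoxynucleotide genes 5 were, with TK1 at -2.30. Only 1 of the 10 DNA methylation genes was, HELLS at -2.83, where UHRF1 itself was at -3.63. At 1% RRM2B was at 1.10.

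**Figure D5:**
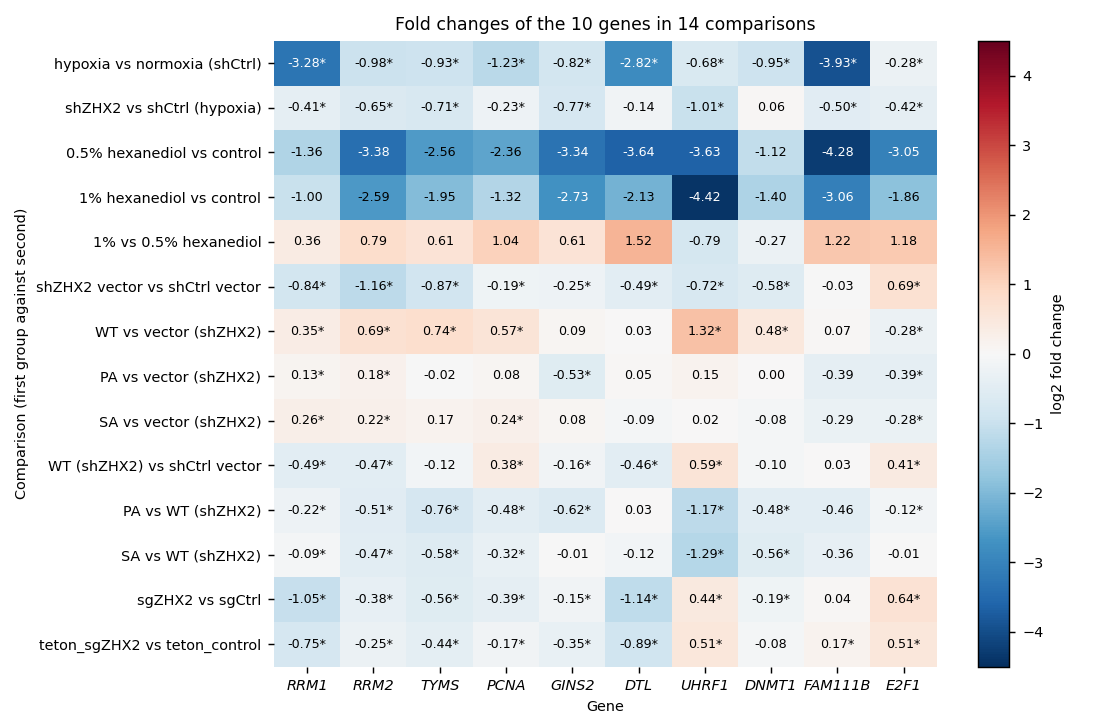
log2 fold changes of the 10 genes (columns) in 14 comparisons (each the first group against the second); blue is lower, red is higher, and * marks an edgeR adjusted p under 0.05. The hexanediol comparisons carry no test and no mark, and comparisons within a table share libraries. Hypoxia against normoxia and each hexanediol dose against untreated cells are lower in every column, and UHRF1 and E2F1 are higher with both guide systems.

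Patterns were compared across the 15 group means of log2 CPM, with 0.5 added to each count, centred on the mean of each table. RRM2 and TYMS were the most alike of the members, with a Pearson correlation of 0.98, and RRM1 and E2F1 the least, with 0.34. These are descriptions over groups that share libraries, tables and base composition effects. The 15 groups include those of the hexanediol table, where the members changed most and from whose values they were chosen in part. The correlations below therefore carry that choice. The genes outside the 10 whose pattern was most like the members' mean, among 9507 compared, were CDC6 (0.98), MCM3 (0.97), RFC2 (0.96), WDR76 (0.96), CCNE2 (0.96) and MCM4 (0.95). CDC6 loads the replicative helicase, MCM3 and MCM4 are subunits of it, RFC2 is a subunit of the clamp loader and CCNE2 is an S-phase cyclin. Among the 9 members above the level minimum of that comparison (all but FAM111B), E2F1, RRM1 and UHRF1 had the lowest correlations with the members' mean, of which each is a part, at 0.79, 0.80 and 0.87. The value for RRM2 was 0.96 and that for TYMS 0.97.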

How the data were processed

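Gene-level read counts per library, deposited by the authors in 4 tables, were used as given. Per the submitters' processing notes, FastQC, HISAT2, featureCounts, DESeq2 and the build hg38 were used. The sources used here do not state the role or version of each tool, the annotation or the strand setting. Columns named sgNC were read as the sgCtrl group, the only guide control outside the teton pair. The 45 replicate pairs differed by more than counting noise (chi-square per degree of freedom 1.77 to 29.5), so none was counted as 1 sample.

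Each table was fitted with edgeR 4.0.16 in R 4.3.3 (filterByExpr, TMM, quasi-likelihood with robust dispersion, all groups in 1 fit), Benjamini-Hochberg adjusted over all genes tested, and called at adjusted p under 0.05. SEs were derived from the log2 fold change and its F statistic. CPM used the TMM library size. Positions, lengths and GC content came from GENCODE release 29. The common biological coefficient of variation was 4.15% (shRNA), 10.2% (hexanediol), 3.16% (rescue) and 2.81% (guides), and counting error adds to it at low counts. The fit was tested on simulated counts.

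The members, the lists of related genes, the markers and the tests were chosen with earlier results of these data known. The text names all members, ZHX2, and from each related list at most the 2 lowest and 2 highest called genes of a comparison. The alternatives were RLE and library size scaling, no filter, DESeq2 1.42.0, only the compared groups, a replicate block, a GC and length correction (smooth terms fitted per library with mgcv 1.9.3), both together, and leaving out each library. Same-numbered libraries deviated together only between 0.5% and 1% hexanediol (correlations 0.12, 0.32 and 0.12). Libraries with different numbers reached 0.17 there, so these values do not show that same-numbered libraries are pairs. The numbers were not taken as pairs in the main fits.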

Additional observations from a re-analysis of the deposited data

Results flagged for a closer look

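The change with sgZHX2 differed between the teton and the sg systems in 4 of the 10 genes, by edgeR's test of the interaction adjusted over all 15781 genes, where 20.3% of all genes were called. The log2 difference, teton minus sg, was 0.30 (SE 0.045, adjusted p = 3.06e-06) for RRM1, 0.14 (SE 0.038, adjusted p = 0.00744) for RRM2 and 0.22 (SE 0.050, adjusted p = 0.000945) for PCNA. In these 3 the fall was smaller in the teton pair. For GINS2 the difference was -0.20 (SE 0.071, adjusted p = 0.0444), with the larger fall in the teton pair. The GINS2 call was lost when any of the sgCtrl libraries, the second or the third sgZHX2, the first teton_control, or the second or the third teton_sgZHX2 library was left out. It was also lost with RLE and library size scaling, no low-count filter, DESeq2, the replicate block and the GC and length correction with or without the block, at values from -0.15 to -0.21. The RRM2 call was lost with the GC and length correction (0.11), which raised DNMT1 to a call (0.23). DNMT1 was also called without the third sgZHX2 library (0.18), and DTL without the third teton_control library (0.31). UHRF1, at 0.074 (SE 0.071, adjusted p = 0.524), and E2F1, at -0.13 (SE 0.061, adjusted p = 0.130), rose in both pairs with no difference passing the test.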

How the results depend on the processing

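The counts of members called, or at least 2-fold lower with hexanediol, stayed within 1.5 times of those reported except as follows. With library size scaling, shZHX2 against shCtrl in hypoxia gave 5 lower and 1 higher, PA against vector 5 higher and PA against WT 2 higher. With the GC and length correction, with or without the replicate block, shZHX2 against shCtrl gave 1 higher, WT against vector 0 lower, and SA against vector 1 higher and 0 lower. With RLE scaling shZHX2 against shCtrl gave 1 higher, and with DESeq2 or with no low-count filter PA against vector gave 1 higher. Leaving out 1 library gave 1 to 3 members higher in PA against vector and 0 to 1 at least 2-fold lower in 1% against 0.5% hexanediol. Signs turned with the GC and length correction for DNMT1 in WT against shCtrl (0.16), E2F1 in WT against vector (0.029) and RRM1 in PA against vector (-0.0050, or -0.0028 with the replicate block). They turned with library size scaling for PCNA in shZHX2 against shCtrl (0.0068), RRM1 in PA against WT (0.026) and SA against WT (0.0017), and E2F1 in PA against WT (0.13). The cause was not tested. The replicate block alone left 174 of 175 values (single genes and counts over all genes) and all 26 counts of members as they were and moved the GINS2 difference between guide systems out of the calls (-0.20). Of the values of single genes and counts over all genes with 1 library left out, 8 gained and 22 lost a call. The other 1080 stayed on their side of the threshold, within the replicate spread where untested, or within 1.5 times for a count. Counts over all genes moved more. Genes at least 2-fold lower numbered 843, 2198 and 1658 in the 3 hexanediol comparisons, 5309, 7267 and 6388 with DESeq2 and 4884, 6594 and 6025 without the filter. Genes called higher in PA against vector numbered 3536, 2350 with the GC and length correction (2328 with the block too) and 5804 with library size scaling, where 1794 were lower in place of 3270. Genes lower in SA against vector went from 3072 to 1869 (1845 with the block), genes higher in hypoxia from 6421 to 3385 with library size scaling, and genes lower in PA against WT from 4826 to 2913. FAM111B rests on 21 to 38 counts per library in the rescue table.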

Other observations

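CDKN1A, the inhibitor p21 and a substrate of the ligase that holds DTL, moved in many of the same comparisons. It went from 127 ± 0.310 to 331 ± 4.37 CPM in hypoxia against normoxia, 1.38 (SE 0.029, adjusted p = 6.98e-45) by edgeR. It rose with shZHX2 in both hairpin tables, at 0.36 and 1.10, and fell with WT against vector, from 3915 ± 39.0 to 1939 ± 20.9 CPM, at -1.01. In PA and SA against WT it was at 0.84 and 0.77, and with the guides at 0.22 and 0.21. With hexanediol it stood at -0.999 at 0.5% and 1.24 at 1%, with no test.

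FAM111A, the paralogue of FAM111B, was at -2.45 in hypoxia beside -3.93 for FAM111B, and rose with shZHX2 in the shRNA table (0.52), where FAM111B was at -0.50. At 0.5% hexanediol FAM111A stood at -0.15, beside -4.28 for FAM111B. Among the cyclins, CCNE1 was at -0.89 with shZHX2 in the shRNA table and at -0.92 with WT against vector, and at 1.01 and 0.90 in PA and SA against WT. CCND1 at 1% hexanediol stood at -3.06.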
